A study of Homo sapiens with 16 samples.

Results

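The ATF4 amino acid stress response was followed as a module of 43 genes, selected by symbol from the 40663 gene symbols of the count table, and all 43 had a row. Expression was measured by bulk RNA sequencing in Ccd18-Co, a human colon fibroblast cell line, in 16 libraries that fall into 4 groups of 4. In 3 groups the fibroblasts had received 3 pulses of TNF, OSM and IL-17A (10 ng/ml each) with IL-1B (0.1 ng/ml), each pulse being 72 h of cytokines in serum-free medium and 96 h of recovery in full medium, and had then rested for 1 week. They were next given DMSO (combo_dmso, called vehicle here), 250 nM belinostat (combo_belinostat) or 10 µM GSK-J4 (combo_gskj4) for 5 days, and RNA was taken 2 weeks after that. The remaining group, unstim_dmso, is called unstimulated and had no cytokine cocktail. Its labels differ on DMSO, with unstim_dmso in the sample titles and unstim_none in the count columns. Vehicle and unstimulated libraries may thus differ in DMSO as well as in cytokines. Whether its wells passed through the same serum-free steps is not given in the sources used here. Doses and group sizes follow the labels. The study's own text differs in places on the doses of belinostat, GSK-J4 and IL-1B and on the number of replicates. Belinostat is a histone deacetylase inhibitor and GSK-J4 an inhibitor of H3K27 demethylases, so the design asks whether either drug, long after washout, leaves a trace in cytokine-exposed fibroblasts. All libraries come from 1 cell line, and by the labels the 2 drugs were given at different doses. No label states that the 4 libraries of a group were separate cultures, so p-values measure the spread between these libraries, which may be technical.

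ATF4 is a basic leucine zipper transcription factor at the end of the integrated stress response. When amino acids run short, when proteins misfold in the endoplasmic reticulum or when mitochondria or haem synthesis fail, dedicated kinases phosphorylate the translation factor eIF2alpha, general translation slows, and ATF4 messenger RNA is translated more efficiently. ATF4 then binds C/EBP-ATF response elements together with other leucine zipper proteins. It turns on genes for serine, glycine, proline and asparagine synthesis, amino acid import and tRNA charging. The feedback regulator TRIB3 and the glutathione-degrading enzyme CHAC1 are also among its targets. In fibroblasts, glycine and proline from these routes are the main residues of collagen. The libraries report mRNA alone, whereas much of the control of ATF4 itself is at translation.

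Letters of the response element can be seen in some promoters of the module. The sites printed below were picked because each belongs to a member that differed between the drugs once 1 library was set aside. Promoter windows from RefSeq (GRCh38.p14, 250 bases before to 50 after each gene's start) were matched by symbol for 35 of the 43 members, with 54 windows in all, some of which overlap within a gene. The letters TGATGNAA were searched on both strands (TTNCATCA on the other). They occurred in 13 of the 54 windows (24.1%), against 1270 of all 35116 windows (3.62%). By gene, 13 of 35 members held the motif (37.1%), against 1217 of 27305 genes (4.46%). Members of the tRNA group held it most often, in 7 of 11, and amino acid transporters in 4 of 7. It was found in 1 of 7 regulators and none of the 3 serine and one-carbon enzymes with a window, and in neither secreted protein. CHAC1, SLC1A4, AARS1, IARS1, MARS1 and NARS1 also held it, and their sites are not printed. They were not called between the drugs, with all libraries or with 1 set aside. Whether the motif goes with the drug difference was not tested. Among other ATF4 targets and leucine zipper partners outside the module the motif was in 4 of 10 genes, a share close to that of members. Among cytosolic tRNA synthetases outside the module it was in 0 of 6 genes, and among mitochondrial ones in 1 of 14. The remaining companion lists, also of genes outside the module, held it in at most 1 gene each. In the sequences below, printed 5′ to 3′ on the strand of the gene, capitals mark the motif. It lies 68 bases before the start in ASNS, 97 before in SLC1A5, 33 before in GARS1 and 2 before in CARS1. In SLC7A1, SLC3A2 and TARS1 it lies 7, 37 and 2 bases after the start. Each distance is to the start of the window that held the motif. In ASNS, SLC1A5, SLC3A2, GARS1, CARS1 and TARS1 that start is inside the gene's annotated span. ASNS, SLC1A5, SLC3A2, GARS1, CARS1 and TARS1 also had a window without the motif.
ASNS, chr7:97872458-97872487, minus strand: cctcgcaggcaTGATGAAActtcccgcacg
SLC1A5, chr19:46784893-46784922, minus strand: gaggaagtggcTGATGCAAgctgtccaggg
SLC7A1, chr13:29595663-29595692, minus strand: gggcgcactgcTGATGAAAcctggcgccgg
SLC3A2, chr11:62881725-62881748, plus strand: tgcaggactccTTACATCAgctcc
GARS1, chr7:30594834-30594863, plus strand: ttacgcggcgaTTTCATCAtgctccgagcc
CARS1, chr11:3057407-3057436, minus strand: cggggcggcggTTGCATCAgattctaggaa
TARS1, chr5:33440956-33440985, plus strand: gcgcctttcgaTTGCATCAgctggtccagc
The match describes these letters only, and says nothing of whether ATF4 was bound there.

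The estimated counts of a library summed to between 14418942 (belinostat 18) and 19476420 (unstimulated 3). In the 4 groups, 8 fibroblast genes, COL1A1 among them, summed to between 413900 and 554480 normalized counts per library, whereas 4 epithelial genes stayed at or below 18.7 in all libraries, 3 endothelial genes at or below 41.7, and 3 glial genes at or below 12.4. The 5 immune genes summed to between 152 and 481, most of it from CD68 (148 to 474), a lysosomal gene of macrophages, while CD3E was at 0 throughout. Normalized counts are estimated counts divided by a library size factor. They are comparable across libraries for 1 gene but not between genes of different length. In bulk RNA, fewer cells of a type and less RNA per cell cannot be told apart.

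One library stood apart in the module and is named before any result. Belinostat replicate 17 was the highest of all 16 libraries for 34 of the 42 members with a mean of at least 50 normalized counts. Over all 11741 genes of that level it was the highest for 13.5%. It was the lowest of the 16 for 1 of the 42 members, ALDH18A1, against 13.2% of all such genes. By Dixon's ratio it lay above the other 3 belinostat libraries for 30 of the 42 members, against 4.18% of all such genes. The median member was 0.61 above the vehicle mean on the log2 scale in replicate 17, and -0.06, -0.08 and -0.10 in replicates 18, 19 and 20. The same medians were 0.17, 0.18, 0.18 and 0.07 in the GSK-J4 libraries and ran from -0.10 to 0.00 in the unstimulated ones. Replicate 17 held 18256366 estimated counts, inside the range of the other groups but above belinostat 18 to 20 (14418942, 16221495 and 16743411). It differed outside the module too. COL1A1 was at 68876 normalized counts, against 89165 to 92350 in replicates 18 to 20, and CD68 at 474, against 148 to 204 and, in GSK-J4 22, 444. The part of these values in the module's level was not tested, and counts of called members are given with and without replicate 17.

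**Figure D1:**
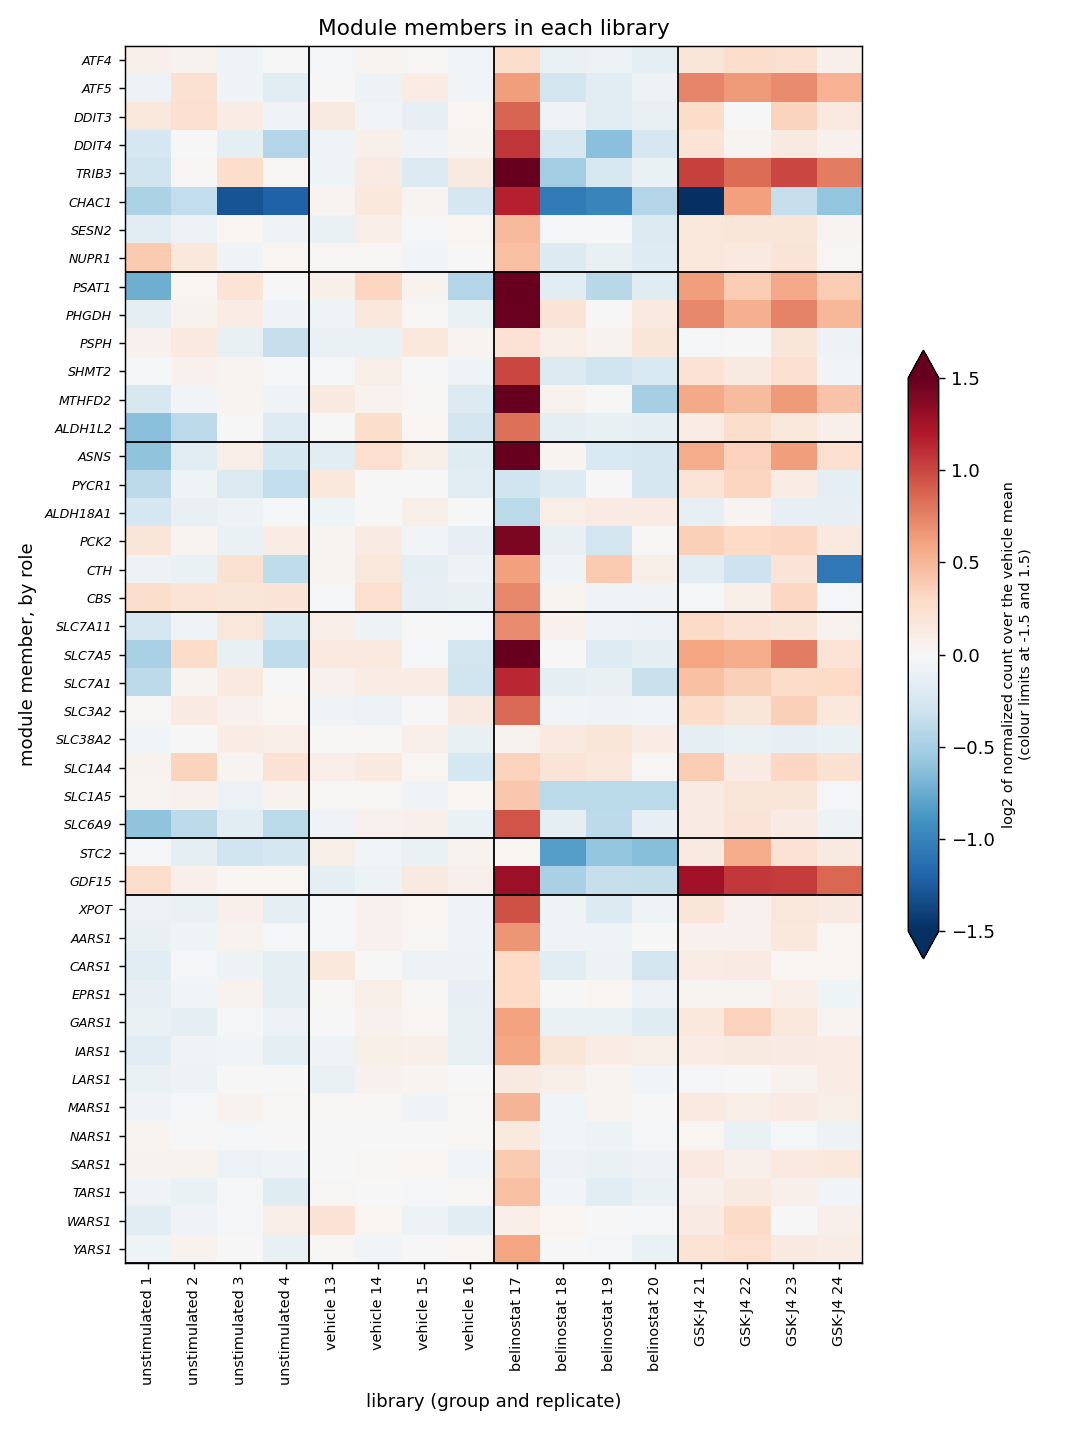
Each row is 1 of the 43 members, ordered by role, and each column 1 of the 16 libraries; colour gives log2 of the normalized count over the vehicle mean, with colour limits at -1.5 and 1.5. Belinostat 17 is red over nearly the whole module, belinostat 18 to 20 are pale to blue, and the 4 GSK-J4 libraries are pale red, most strongly for TRIB3, GDF15, ATF5 and PHGDH.

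With all 16 libraries in 1 DESeq2 fit, few members passed an adjusted p of 0.05. Vehicle against unstimulated called 0 of 41 tested members (1 at an unadjusted p under 0.05), where 1.74% of all tested genes were called, and edgeR called 0 of 43, where it called 1.15% of all. Belinostat against vehicle called 1 (STC2, lower), with a background of 6.26%. GSK-J4 against vehicle called 1 (ATF5, higher), with a background of 1.92%. Belinostat against GSK-J4, the last of these first 4 contrasts, called 4 (ATF5, PYCR1 and STC2 lower, SLC38A2 higher), with a background of 12.2%. Apart from GSK-J4 against vehicle, where 1 of 41 is also near its background, the share of members called was below that of all genes. TRIB3 and PSAT1 received no p in this fit because replicate 17 was extreme for both by Cook's distance, and for 36 members the highest Cook's distance lay in that library. Without replicate 17 the fitted dispersion was lower by as much as 19.0 times (SHMT2), and all 43 members were tested.

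Without replicate 17 more members were called between the 2 drugs. That library was singled out by its level on these same members, so leaving it out is a choice made on the values tested. The adjusted p-values without it do not account for that choice. Vehicle against unstimulated called 1 of 43 (SLC6A9, higher), with a background of 3.1%. Belinostat against vehicle called 6 of 43, with a background of 8.27%. Of these, 1 was higher (SLC38A2), against 4.21% of all genes, and 5 were lower (DDIT4, SHMT2, SLC1A5, STC2 and GDF15), against 4.07%. GSK-J4 against vehicle called 10 of 43, with a background of 3.17%. All 10 were higher (ATF4, ATF5, TRIB3, PHGDH, MTHFD2, SLC7A5, SLC3A2, GDF15, SARS1 and YARS1), against 1.91% of all genes, and 0 were lower, against 1.26%. Belinostat against GSK-J4 called 28 of 43, 26 of them lower with belinostat, where 14.6% of all genes were called. These contrasts share the vehicle or the drug libraries, and their calls are not independent of each other.

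A fit of the vehicle and GSK-J4 libraries alone, with no belinostat library in it, called 15 of 42 tested members for GSK-J4 against vehicle, all higher, where 4.26% of all tested genes were called. The count of libraries gives the same picture for GSK-J4 without a model. For 18 of the 42 members of mean 50 or more, all 4 GSK-J4 libraries lay above all 4 vehicle libraries, against 5.83% of all such genes. For 0 members did all 4 lie below, against 4.83%. The median member changed by 0.14 on the log2 scale from vehicle to GSK-J4, with a median over all genes of 0.00, and 38 of 43 were on the higher side. For belinostat against vehicle the median member was at 0.15 with replicate 17 and at -0.11 without it.

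**Figure D2:**
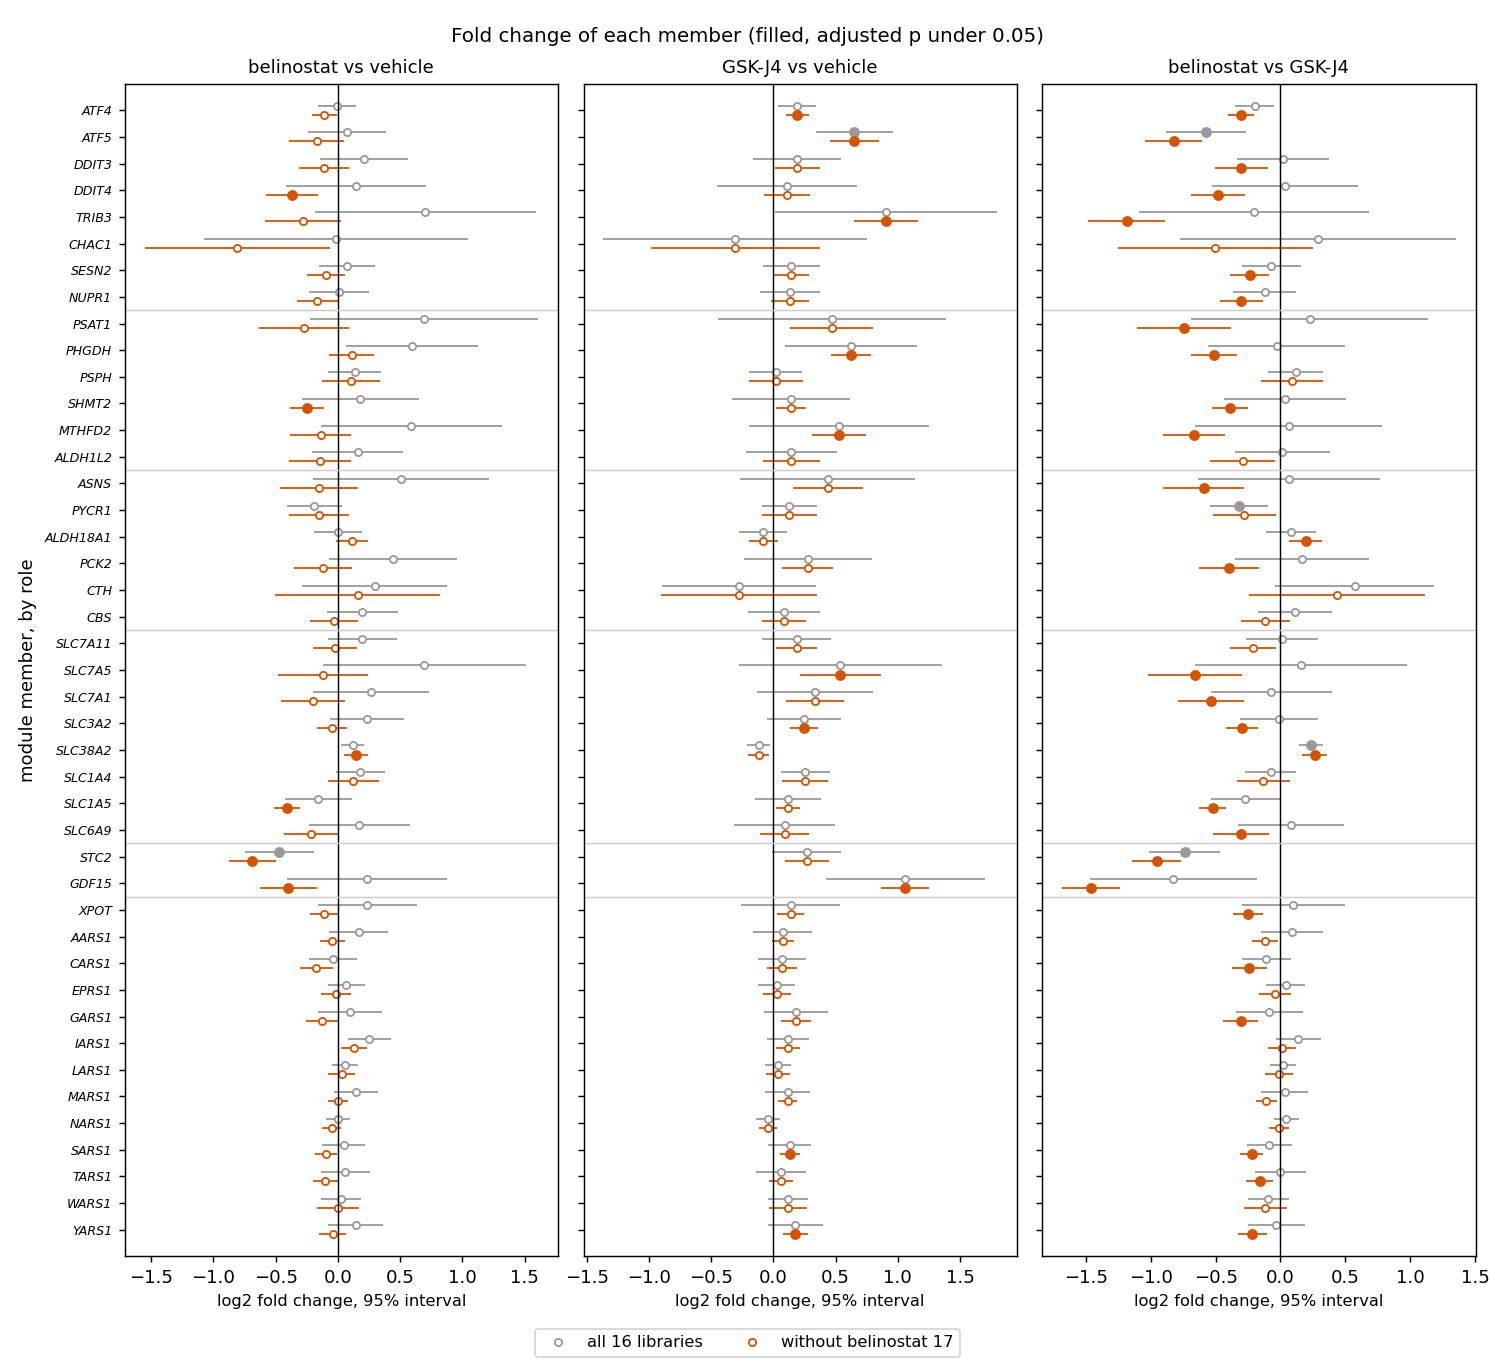
Points are DESeq2 log2 fold changes with 95% intervals for each member in 3 contrasts, in grey for all 16 libraries and in orange without belinostat replicate 17; filled points passed an adjusted p of 0.05. Removing 1 library narrowed most intervals, left the GSK-J4 estimates in place and moved most belinostat estimates to the left.

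ATF4 itself (chromosome 22, 39519695 to 39522683, plus strand, GRCh38 with GENCODE v44) had normalized counts of 6477, 6373, 5867 and 6083 in the unstimulated libraries 1 to 4 and 6053, 6289, 6209 and 5942 in the vehicle libraries 13 to 16. It was at 7358 in belinostat 17 and at 5696, 5779 and 5556 in belinostat 18 to 20, and at 6930, 7359, 7262 and 6432 in GSK-J4 21 to 24. The 4 GSK-J4 libraries lay above all vehicle libraries and belinostat 18 to 20 below all of them, while belinostat 17 lay level with the highest GSK-J4 library. From vehicle to GSK-J4 the log2 fold change was 0.19 ± 0.08 (SE, adjusted p = 0.26) in the 16-library fit and 0.19 ± 0.05 (adjusted p = 0.00298) without replicate 17. From vehicle to belinostat it was -0.01 ± 0.08 (adjusted p = 0.989) and, without replicate 17, -0.11 ± 0.05 (adjusted p = 0.21). Between unstimulated and vehicle libraries ATF4 differed by -0.02, with a 95% interval from -0.17 to 0.13.

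ATF5 (chromosome 19, 49928702 to 49933935, plus strand), a related leucine zipper factor that ATF4 induces and that takes part in the mitochondrial stress response, was the 1 member called for GSK-J4 against vehicle with all 16 libraries. Its normalized counts were 216, 270, 220 and 206 without cytokines, 231, 218, 249 and 223 in vehicle, 355 in belinostat 17, 190, 204 and 218 in belinostat 18 to 20, and 383, 357, 376 and 330 in GSK-J4. The GSK-J4 libraries overlapped no vehicle or unstimulated library. Against vehicle ATF5 rose with GSK-J4 by 0.65 ± 0.16 on the log2 scale (adjusted p = 0.00463), and by 0.65 ± 0.10 without replicate 17 (adjusted p = 1.68e-08). With belinostat it was lower than with GSK-J4, by -0.58 ± 0.16 (adjusted p = 0.00391) and by -0.82 ± 0.11 (adjusted p = 1.14e-11) without replicate 17. The vehicle and belinostat groups were not separated, at 0.08 ± 0.16 (adjusted p = 0.905) and -0.17 ± 0.11 (adjusted p = 0.48).

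DDIT3 (chromosome 12, 57516588 to 57521737, minus strand), which encodes the pro-apoptotic factor CHOP, was not called against vehicle under either drug. It was at 401, 353, 333 and 373 in vehicle, 669 in belinostat 17, 352, 327 and 336 in belinostat 18 to 20, and 441, 362, 458 and 405 in GSK-J4, with 410, 430, 394 and 350 in unstimulated libraries. Only replicate 17 stood above the range of the other groups. The change with GSK-J4 was 0.19 ± 0.18 (adjusted p = 0.831) with all libraries and 0.19 ± 0.09 (adjusted p = 0.368) without replicate 17. Between the drugs DDIT3 was at 0.02 ± 0.18 (adjusted p = 0.976) with replicate 17 and lower with belinostat by -0.30 ± 0.10 without it (adjusted p = 0.0275). The DDIT3 locus shares 982 bases with MARS1 and 1028 with MBD6 on the other strand, and 2769 with an Ensembl gene without a symbol on its own strand, and counts were not stated to use strand.

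The other regulators were examined after their values were seen. TRIB3, a pseudokinase that dampens ATF4 and AKT signalling, had 132, 150, 120 and 152 normalized counts in vehicle and 281, 247, 277 and 236 with GSK-J4. It was at 560 in belinostat 17 and at 96.5, 117 and 129 in belinostat 18 to 20. GSK-J4 libraries thus all exceeded the vehicle libraries, and belinostat 17 exceeded every other library. Without replicate 17, TRIB3 rose with GSK-J4 by 0.91 ± 0.13 (adjusted p = 3.88e-09) and was at -0.28 ± 0.16 with belinostat (adjusted p = 0.346). DDIT4, an inhibitor of mTORC1 also known as REDD1, was at 615, 677, 617 and 659 in vehicle, 1348 in belinostat 17 and 542, 414 and 537 in belinostat 18 to 20. Its belinostat change turned from 0.15 ± 0.29 (adjusted p = 0.896) to -0.37 ± 0.11 (adjusted p = 0.00901) once replicate 17 was left out. CHAC1, a glutathione-degrading enzyme and often among the first ATF4 targets to rise, was uneven within groups, at 34.6, 199, 102 and 86.0 with GSK-J4, 133, 145, 133 and 109 in vehicle, 291 in belinostat 17 and 62.3, 64.7 and 95.5 in belinostat 18 to 20. The DESeq2 fits with and without replicate 17 called CHAC1 in none of the first 4 contrasts. The SESN2 and NUPR1 genes, a leucine-sensing mTORC1 inhibitor and a stress-induced chromatin protein, were both lower with belinostat than with GSK-J4 without replicate 17 (-0.24 ± 0.08 and -0.30 ± 0.08), and neither was called with it (adjusted p = 0.813 and 0.647).

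**Figure D3:**
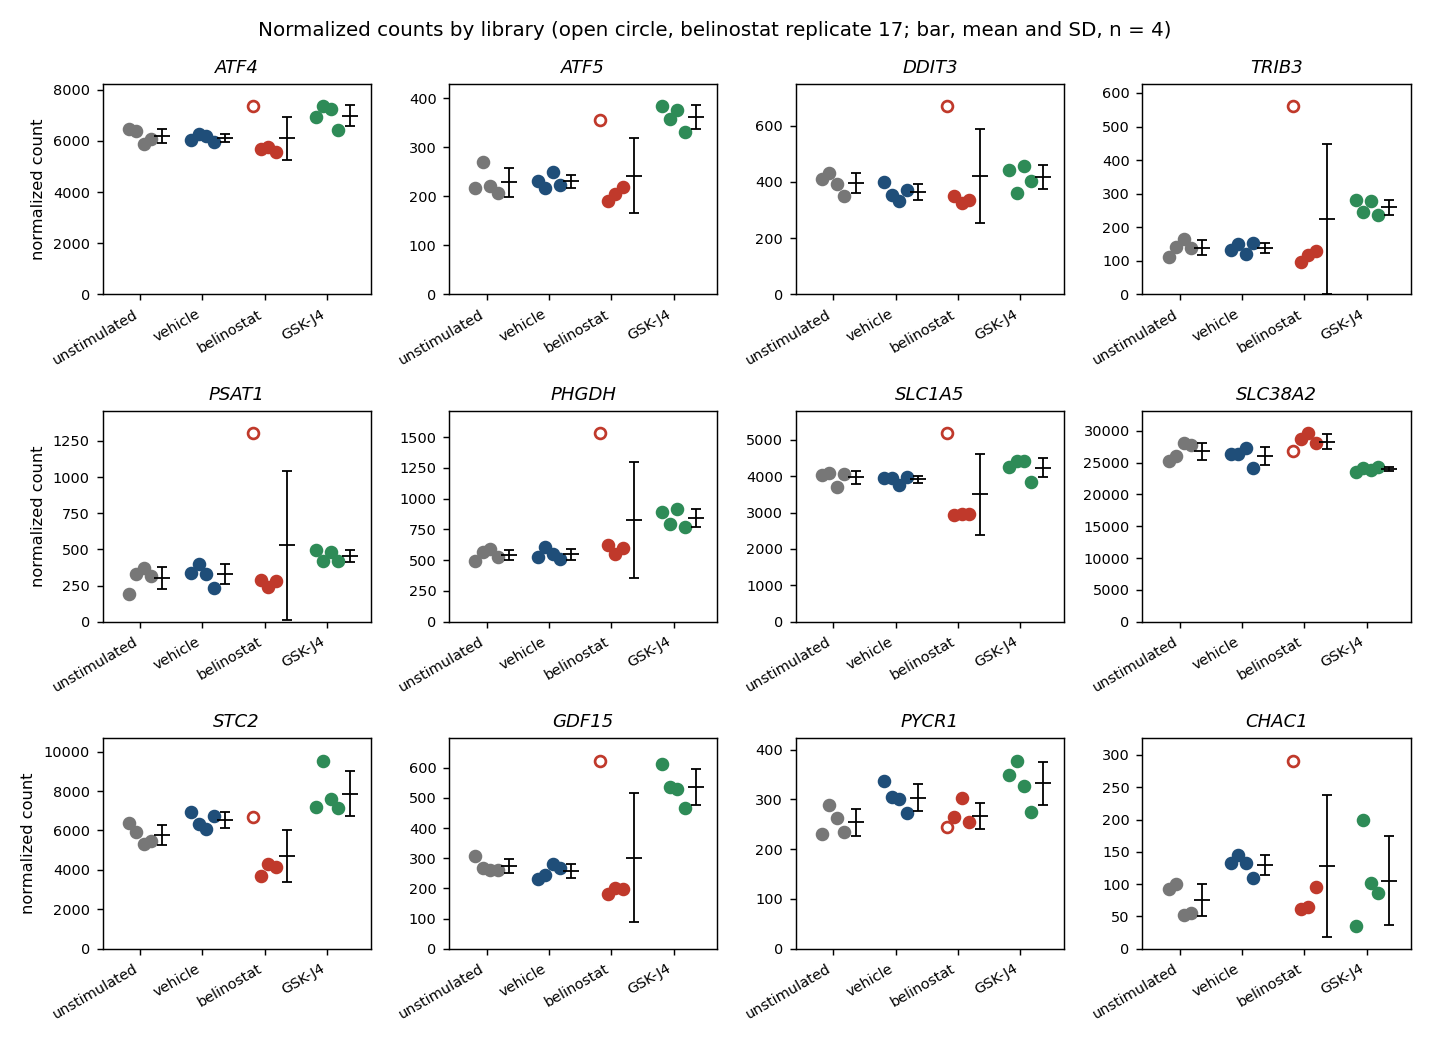
Normalized counts of 12 members in each library, with the open circle marking belinostat replicate 17 and the bar to the right of each group giving its mean and SD (n = 4, replicate 17 included); all axes start at 0. GSK-J4 points for ATF5, TRIB3, PHGDH and GDF15 lie above all vehicle points, and the filled belinostat points for SLC1A5, STC2 and GDF15 lie below them.

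Serine, glycine and one-carbon enzymes showed the largest excess in replicate 17 of any role group: the list median there was 1.25 above the vehicle mean on the log2 scale, all 6 members were at their highest of 16 libraries, and in belinostat 18 to 20 the list median was between -0.16 and -0.05. PHGDH and PSAT1 catalyse the opening steps of serine synthesis from glucose. PHGDH was at 522, 607, 551 and 507 in vehicle, 1530 in belinostat 17, 623, 547 and 601 in belinostat 18 to 20, and 895, 790, 915 and 772 with GSK-J4. PSAT1 was at 339, 401, 333 and 236 in vehicle, 1302 in belinostat 17, 288, 242 and 283 in belinostat 18 to 20, and 496, 420, 479 and 417 with GSK-J4. For both genes the GSK-J4 libraries overlapped no vehicle library. PHGDH rose with GSK-J4 by 0.63 ± 0.08 without replicate 17 (adjusted p = 3.29e-11), where the 16-library fit gave 0.63 ± 0.27 (adjusted p = 0.325). The PSAT1 estimate of 0.47 ± 0.17 did not pass (adjusted p = 0.116).

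Downstream of serine, SHMT2 and MTHFD2 carry one-carbon units through the mitochondria. MTHFD2 was at 385, 362, 355 and 303 in vehicle, 1155 in belinostat 17, 361, 351 and 247 in belinostat 18 to 20, and 521, 488, 545 and 471 with GSK-J4, and rose with GSK-J4 by 0.53 ± 0.11 without replicate 17 (adjusted p = 0.000255). The 16-library fit gave the same estimate with a larger error and no call (0.53 ± 0.37, adjusted p = 0.717). SHMT2 was at 929, 1004, 943 and 903 in vehicle, 1890 in belinostat 17, 817, 766 and 804 in belinostat 18 to 20, and 1099, 1037, 1111 and 920 with GSK-J4. The 3 belinostat libraries other than replicate 17 lay below all vehicle libraries, and SHMT2 fell with belinostat by -0.25 ± 0.07 without replicate 17 (adjusted p = 0.00813), against 0.18 ± 0.24 and no call with it. Between the drugs, PSAT1, PHGDH, SHMT2 and MTHFD2 were all lower with belinostat without replicate 17, from -0.39 ± 0.07 for SHMT2 to -0.74 ± 0.18 for PSAT1. With it, PHGDH was at -0.03, SHMT2 at 0.04 and MTHFD2 at 0.06 (adjusted p = 0.971, 0.957 and 0.954), and PSAT1, at 0.22, had no p. PSPH completes serine synthesis and ALDH1L2 oxidises mitochondrial formyl-tetrahydrofolate. The fits with and without replicate 17 called neither gene in the first 4 contrasts.

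Among the asparagine, proline, PEP and transsulfuration enzymes, ASNS, which makes asparagine, was at 215, 287, 254 and 212 in vehicle, 720 in belinostat 17, 247, 205 and 201 in belinostat 18 to 20, and 352, 304, 372 and 283 with GSK-J4. GSK-J4 24 lay inside the vehicle range, and the GSK-J4 change of 0.44 ± 0.14 without replicate 17 did not pass (adjusted p = 0.0695). ASNS was lower with belinostat than with GSK-J4 by -0.59 ± 0.16 without replicate 17 (adjusted p = 0.00254), and PCK2, mitochondrial PEP carboxykinase, by -0.40 ± 0.12 (adjusted p = 0.00771). With replicate 17 both estimates were above 0 and neither was called (adjusted p = 0.95 for ASNS and 0.803 for PCK2). The proline enzymes ran otherwise. PYCR1 (chromosome 17, 81932384 to 81942412, minus strand), which completes proline synthesis, was at 231, 288, 263 and 234 in unstimulated, 337, 305, 301 and 272 in vehicle, 245, 264, 303 and 254 in belinostat 17 to 20, and 349, 378, 327 and 275 with GSK-J4. Replicate 17 was here the lowest of the belinostat libraries. PYCR1 was lower with belinostat than with GSK-J4 by -0.32 ± 0.11 with all libraries (adjusted p = 0.0456), and at -0.28 ± 0.12 without replicate 17 the call was lost (adjusted p = 0.119). Over all settings tried it was called in 5 of 15, with adjusted p from 0.00624 to 0.22, and it was lost among others with edgeR and on leaving out belinostat 18 or 20 or GSK-J4 21, 22 or 23. ALDH18A1, which opens proline synthesis, was at 987 in belinostat 17, below all other libraries, and at 1393, 1422 and 1419 in belinostat 18 to 20, above all vehicle libraries (1244, 1295, 1384 and 1296). It was at 0.11 ± 0.07 for belinostat against vehicle without replicate 17 (adjusted p = 0.363) and higher than with GSK-J4 by 0.20 ± 0.07 (adjusted p = 0.0241), which was not called with it (adjusted p = 0.727). CTH was at 9.4 to 31.5 normalized counts in all libraries. In the fits with and without replicate 17, CTH and CBS passed in none of the first 4 contrasts.

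Amino acid transporters moved in both directions. SLC7A5 and SLC3A2 form the heterodimer LAT1, which imports large neutral amino acids in exchange for glutamine. SLC7A5 was at 146, 145, 129 and 108 in vehicle, 488 in belinostat 17, 132, 114 and 118 in belinostat 18 to 20, and 198, 192, 224 and 151 with GSK-J4. SLC3A2 was at 1768, 1723, 1840 and 2001 in vehicle, 3307 in belinostat 17, 1784, 1756 and 1774 in belinostat 18 to 20, and 2222, 2073, 2353 and 2046 with GSK-J4. All GSK-J4 libraries exceeded all vehicle libraries for both chains. Without replicate 17, SLC7A5 rose with GSK-J4 by 0.54 ± 0.17 (adjusted p = 0.0424) and SLC3A2 by 0.25 ± 0.06 (adjusted p = 0.00138), and neither passed with it (adjusted p = 0.766 and 0.654).

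SLC1A5, the glutamine importer ASCT2, was nearly level across 3 of the 4 belinostat libraries. It was at 2943, 2952 and 2958 in belinostat 18 to 20, 5174 in belinostat 17, 3941, 3942, 3764 and 3982 in vehicle, 4033, 4084, 3688 and 4047 in unstimulated and 4255, 4422, 4417 and 3852 in GSK-J4 libraries. Replicate 17 was thus the highest of all 16 libraries and the other 3 belinostat libraries the 3 lowest. SLC1A5 fell with belinostat by -0.41 ± 0.05 without replicate 17 (adjusted p = 9.88e-12), and by -0.16 ± 0.14 with it (adjusted p = 0.685). SLC38A2 (chromosome 12, 46358188 to 46372773, minus strand), the SNAT2 carrier for small neutral amino acids that is induced on amino acid starvation, ran the opposite way. Its normalized counts were 25246, 25987, 28074 and 27786 in unstimulated, 26312, 26353, 27345 and 24129 in vehicle, 26902, 28723, 29592 and 28049 in belinostat 17 to 20 and 23572, 24209, 23903 and 24347 with GSK-J4. Every belinostat library lay above every GSK-J4 library, and replicate 17 was the nearest to them. SLC38A2 was higher with belinostat than with GSK-J4 by 0.24 ± 0.05 (adjusted p = 1.35e-05) and by 0.26 ± 0.05 without replicate 17 (adjusted p = 1.28e-06). Against vehicle, belinostat gave 0.12 ± 0.05 (adjusted p = 0.116) with replicate 17 and 0.15 ± 0.05 (adjusted p = 0.0324) without it. SLC7A1, a cationic amino acid carrier, and SLC6A9, a glycine carrier, were lower with belinostat than with GSK-J4 without replicate 17 (-0.54 ± 0.13 and -0.30 ± 0.11) and not called with it (adjusted p = 0.919 and 0.888), whereas the cystine carrier SLC7A11 and the alanine and serine carrier SLC1A4 passed in neither fit (adjusted p = 0.0948 and 0.467 without replicate 17).

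The 2 secreted members were both lower with belinostat than with GSK-J4 without replicate 17. STC2 (chromosome 5, 173314723 to 173328447, minus strand), stanniocalcin 2, was at 6394, 5926, 5300 and 5444 in unstimulated, 6942, 6335, 6074 and 6733 in vehicle, 6665 in belinostat 17, 3684, 4311 and 4172 in belinostat 18 to 20, and 7177, 9544, 7583 and 7133 with GSK-J4. Belinostat 18 to 20 were the 3 lowest libraries of the 16, GSK-J4 the 4 highest, and replicate 17 fell within the vehicle range. STC2 fell with belinostat by -0.47 ± 0.14 (adjusted p = 0.0188), and by -0.69 ± 0.10 without replicate 17 (adjusted p = 2.69e-10). The first call was lost with edgeR and on leaving out vehicle 13 or 16 or belinostat 18, 19 or 20. Between the drugs the difference was -0.74 ± 0.14 (adjusted p = 6.12e-06) and -0.95 ± 0.10 (adjusted p = 1.56e-20). GDF15, a stress hormone of the TGF-beta family and a known ATF4 and CHOP target, was at 232, 243, 282 and 269 in vehicle, 623 in belinostat 17, 183, 202 and 199 in belinostat 18 to 20, and 611, 536, 528 and 467 with GSK-J4. GSK-J4 libraries lay above the vehicle range and belinostat 18 to 20 below it. Without replicate 17, GDF15 rose with GSK-J4 by 1.06 ± 0.10 (adjusted p = 1.57e-22) and fell with belinostat by -0.40 ± 0.12 (adjusted p = 0.0131). With it, these were 1.06 ± 0.33 (adjusted p = 0.0565) and 0.24 ± 0.33 (adjusted p = 0.841).

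The tRNA charging and export group shifted little outside replicate 17, where its list median was 0.45 above the vehicle mean and 12 of its 13 genes were at their highest. In GSK-J4 libraries the list median was 0.07 to 0.12, and in belinostat 18 to 20 -0.07 to -0.04. SARS1 and YARS1, the seryl and tyrosyl synthetases, passed with GSK-J4 without replicate 17, at 0.13 ± 0.04 (adjusted p = 0.0459) and 0.18 ± 0.05 (adjusted p = 0.0221), and not with it (adjusted p = 0.699 and 0.676). Between the drugs, 0 of 13 were called with all libraries (0 at an unadjusted p under 0.05), where 12.2% of all genes were called. Without replicate 17, 6 of 13 were lower with belinostat (XPOT, CARS1, GARS1, SARS1, TARS1 and YARS1), where 14.6% of all genes were called in either direction. GARS1 was at -0.31 ± 0.07 and XPOT, the exporter of mature tRNA from the nucleus, at -0.25 ± 0.06. None of WARS1, also an interferon-responsive gene, LARS1, NARS1 and EPRS1 passed in these contrasts, with or without replicate 17. Replicate 17 was the exception in level for the group too, for instance at 5086 for XPOT, against 2282 to 2516 in the other belinostat libraries and 2526 to 2736 in vehicle.

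Unstimulated cells had neither cytokine nor drug, and their labels differ on whether they had DMSO. Against these cells belinostat called 1 of 41 members (IARS1, higher, 0.35 ± 0.09, adjusted p = 0.00149), with a background of 10.3%. GSK-J4 called 4 (ATF5, PYCR1 and STC2 higher, SLC38A2 lower), with a background of 5.55%. Of the GSK-J4 calls, ATF5 was called in 16 of 16 settings, PYCR1 in 12, SLC38A2 in 10 and STC2 in 9. Without replicate 17, belinostat called 7 of 43, with a background of 9.69%. Of these, ALDH18A1 and IARS1 were higher and SHMT2, SLC1A5, STC2, NUPR1 and GDF15 lower. GSK-J4 called 26 of 43, with a background of 8.64%, and 25 of these were higher, SLC38A2 being the exception. The median member was at 0.20 for GSK-J4 in both fits. For belinostat it was at 0.16 with all libraries, with 38 of 43 above 0, and at -0.03 without replicate 17, with 16 of 43 above 0. The vehicle group itself moved the median member by 0.05. SLC6A9 was at 225, 259, 304 and 259 in unstimulated and 329, 357, 361 and 320 in vehicle libraries, higher by 0.39 ± 0.10 without replicate 17 (adjusted p = 0.00885) and not called with it (adjusted p = 0.625). All vehicle libraries lay above all unstimulated ones for this gene.

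Companion lists show what surrounded the module. The 4 eIF2alpha kinases, EIF2AK1 to EIF2AK4 (HRI, PKR, PERK and GCN2), passed in none of the first 4 contrasts in either fit, with estimates against vehicle between -0.27 (EIF2AK2, belinostat) and 0.13 (EIF2AK3, belinostat) in the 16-library fit. PPP1R15A, the stress-induced phosphatase subunit GADD34, was at 0.13 ± 0.08 with GSK-J4 (adjusted p = 0.608). The list of other ATF4 targets and leucine zipper partners had 13 tested genes (FGF21 was at 0 in all libraries). For GSK-J4 against vehicle 3 passed in the 16-library fit, where 1.92% of all genes were called. Without replicate 17, 8 passed, 7 higher and 1 lower, where 3.17% of all genes were called. ATF3, a stress-induced factor that ATF4 activates, was at 47.6, 8.6, 27.9 and 20.3 in vehicle, 56.3, 24.4, 27.0 and 31.2 in belinostat 17 to 20, and 108, 103, 155 and 108 with GSK-J4. All GSK-J4 libraries exceeded all others, and ATF3 rose by 2.18 ± 0.36 (adjusted p = 8.23e-07, and 4.65e-09 without replicate 17). NIBAN1, a translation regulator, rose by 0.71 ± 0.19 (adjusted p = 0.018, and 0.000874 without replicate 17) and JDP2, a leucine zipper repressor, was lower by -0.17 ± 0.05 (adjusted p = 0.0248, and 0.0209 without it). CEBPB, a dimer partner of ATF4, was at 0.16 ± 0.12 with GSK-J4 (adjusted p = 0.762). The gene VLDLR, a lipoprotein receptor, was lower in vehicle than in unstimulated libraries by -0.57 ± 0.11 (adjusted p = 9.08e-05).

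The other branches of the unfolded protein response did not follow the module under GSK-J4. Of 18 genes of the ATF6 and IRE1 arms, 16 had an estimate below 0 and 2 passed as lower, where 1.92% of all genes were called in either direction. The 2 were the chaperones HSP90B1 (-0.23 ± 0.04, adjusted p = 2.21e-07) and HYOU1 (-0.18 ± 0.05, adjusted p = 0.015). Without replicate 17, 3 passed as lower, DNAJB9 being the other, where 1.26% of all genes were called lower. HSPA5, the endoplasmic reticulum chaperone BiP, was at 11578, 11747, 12040 and 12351 in vehicle and 10445, 11231, 10883 and 10583 with GSK-J4, at -0.15 ± 0.05 (adjusted p = 0.111). The GSK-J4 libraries lay below all vehicle libraries for HSPA5, without a call, and inside the unstimulated range of 10387 to 12340. From unstimulated to vehicle, all 18 genes of this list had an estimate above 0 (median 0.08). HSP90B1 alone passed there, as higher, where 1.74% of all genes were called. For GSK-J4 against unstimulated the list median was -0.02, with 11 of 18 below 0. HSP90B1 alone passed there, as lower, where 5.55% of all genes were called. In replicate 17 the median of this list was 0.01 from the vehicle mean. For belinostat against vehicle, XBP1, a transcription factor of the IRE1 arm, was the 1 gene of the list called. It was lower by -0.24 ± 0.05 (adjusted p = 0.000239), where 6.26% of all genes were called. Without replicate 17, XBP1 was lower by -0.21 ± 0.05 (adjusted p = 0.00254) and ATF6 passed as higher, where 8.27% of all genes were called. The 8 cytosolic tRNA synthetases outside the module gave 0 calls against vehicle under either drug in the DESeq2 fits (at most 1 gene at an unadjusted p under 0.05), and in replicate 17 their median was 0.05, against 0.45 for the tRNA list of the module. The 17 mitochondrial synthetases also gave 0 DESeq2 calls against vehicle (at most 2 at an unadjusted p under 0.05), and their median in replicate 17 was 0.01. For one-carbon enzymes outside the module the median in replicate 17 was -0.05, but their summed level was the highest of the 16 libraries there (3377 normalized counts, against 2835 to 3085 in the others). MTHFD1L, a mitochondrial formate-producing enzyme of this list, was at 1316 in replicate 17 and 919 to 985 in the other belinostat libraries, and was higher with belinostat than with vehicle by 0.32 ± 0.10 (adjusted p = 0.0326), and not called without replicate 17 (adjusted p = 0.12). Of 12 tested proliferation genes, 3 rose with GSK-J4 against vehicle (MKI67 by 1.42 ± 0.36, TOP2A by 0.78 ± 0.21 and TYMS by 0.66 ± 0.11), where 1.92% of all genes were called. The same 3 passed without replicate 17, where the share of all genes was 3.17%. The part of this rise in the module's level was not tested.

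**Figure D4:**
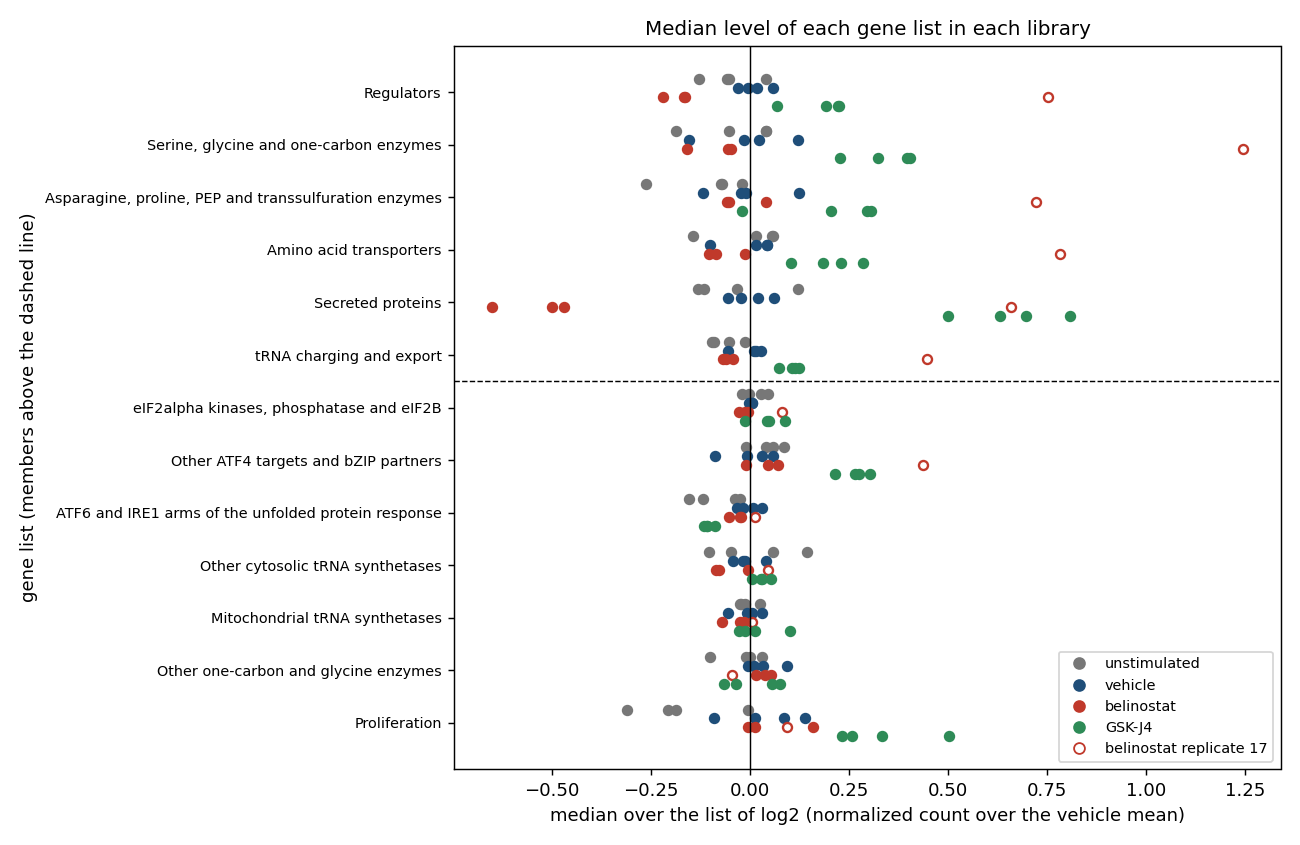
Each point is 1 library and gives the median, over a gene list, of log2 of the normalized count over the vehicle mean; member lists stand above the dashed line and companion lists below it. The open circle of belinostat 17 lies at 0.45 to 1.25 in the 6 member lists, to the right of all other libraries except in the secreted list, where 0.66 falls among the GSK-J4 libraries (0.50 to 0.81); other ATF4 targets are at 0.44.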

How the data were processed

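RNA of 16 libraries was analysed from the deposited table of estimated counts per gene symbol, which the authors made with kallisto 0.48.0 (FastQC 0.11.9 and MultiQC 1.14 in the submitters' processing notes, hg38). The transcript release and how transcripts became symbols are not given in the sources used here. All 16 columns were used, matched to samples by title, leaving 0 unused, and 28% of values had decimals and were rounded. DESeq2 1.42.0 (R 4.3.3) was fitted by group to all 16 libraries, with its Wald test, unshrunken fold changes, and Benjamini-Hochberg adjustment over all tested genes at 0.05, and again without belinostat replicate 17. The scripts were tested on simulated data. Alternatives were edgeR 4.0.16 quasi-likelihood, TMM and total-count scaling, a filter on low counts, fits of only the groups compared, and leaving out each library. Replicates of a group differed beyond sampling noise, so none was merged. Members and lists were chosen with earlier results of these data known. ATF4, ATF5, DDIT3 and members called in 1 of the first 4 contrasts are described in full. Other members, and which genes carry all libraries' values, were chosen after their values were seen. Of companion genes only called ones were named, plus ATF3, CEBPB, PPP1R15A, HSPA5 and the eIF2alpha kinases. Level lists used log2 of the normalized count plus 0.5. The locus of 13 members overlaps another coding gene and 12 have annotated pseudogenes (GENCODE v44), so their counts are less certain.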

Additional observations from a re-analysis of the deposited data

Results flagged for a closer look

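Within groups of 4 libraries, 36 of 172 member and group combinations had a library whose gap to its nearest neighbour exceeded Dixon's 95% limit for 4 values, where chance gives about 1 in 20. Of these, 31 were belinostat replicate 17, and 30 of them were high. Among regulators, replicate 17 stood above the other 3 belinostat libraries for ATF4 (7358 normalized counts), ATF5 (355.1), DDIT3 (669.2), DDIT4 (1348), TRIB3 (560.4), CHAC1 (291.2) and NUPR1 (2476). Among enzymes this held for ASNS (719.8), PSAT1 (1302), PHGDH (1530), SHMT2 (1890), MTHFD2 (1155), ALDH1L2 (1342), PCK2 (520.3) and CBS (1165). ALDH18A1 was low instead (987.2). Transporters and secreted factors gave SLC7A11 (4614), SLC7A5 (487.9), SLC7A1 (646.3), SLC3A2 (3307), SLC1A5 (5174), SLC6A9 (654.9) and GDF15 (623.4). The tRNA group gave XPOT (5086), AARS1 (4475), GARS1 (2572), IARS1 (5667), MARS1 (3268), SARS1 (4141), TARS1 (2462) and YARS1 (1948).

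The other 5 gaps fell in 5 libraries, near the number of 1 in 20 or below it: SLC1A5 was low in unstimulated replicate 3 (3688), SLC7A1 in vehicle replicate 16 (238.8), MARS1 in vehicle replicate 15 (2222) and SESN2 in GSK-J4 replicate 24 (606.9), and ALDH18A1 was high in GSK-J4 replicate 22 (1344).

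The belinostat and GSK-J4 groups, both set against the same vehicle libraries, differed by DESeq2 for 4 members with all 16 libraries. The difference, belinostat minus GSK-J4, was -0.58 for ATF5, -0.32 for PYCR1, 0.24 for SLC38A2 and -0.74 for STC2 on the log2 scale. The PYCR1 difference was called in 5 of 15 settings and the other 3 in all 15.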

How the results depend on the processing

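Leaving out 1 library at a time gave 0 to 1 members called for vehicle against unstimulated, 0 to 6 for belinostat against vehicle, 1 to 10 for GSK-J4 against vehicle, 3 to 28 for belinostat against GSK-J4, 1 to 7 for belinostat against unstimulated and 1 to 26 for GSK-J4 against unstimulated, the highest value coming each time without replicate 17. With all libraries, edgeR's quasi-likelihood test called 0 for belinostat against vehicle (4 at an unadjusted p under 0.05), 0 for GSK-J4 against vehicle (7) and 2 for GSK-J4 against unstimulated (11), where 4.93%, 0.631% and 5.46% of all genes were called. Without replicate 17, an alternative added after seeing the data, edgeR called 1 for vehicle against unstimulated (2.36% of all genes), 5 for belinostat (6.94%) and 7 for GSK-J4 (1.76%) against vehicle, 27 between the drugs (14.4%), and 7 and 24 for belinostat and GSK-J4 against unstimulated (9.5% and 8.4%). Fits of only the groups compared called 2 for vehicle against unstimulated (1.89% of all genes), 15 for GSK-J4 against vehicle (4.26%) and 22 for GSK-J4 against unstimulated (6.35%). TMM factors, total-count scaling and a filter on low counts left each of these counts within 1.5 times.

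Without replicate 17 the direction turned for the members that follow, each above 0 with it and called below 0 without it. For belinostat against vehicle, leaving out 1 library gave -0.368 to 0.334 for DDIT4, -0.248 to 0.309 for SHMT2 and -0.397 to 0.412 for GDF15, and edgeR without replicate 17 gave -0.364, -0.243 and -0.393. Against GSK-J4 the ranges were -0.301 to 0.121 for DDIT3, -0.479 to 0.223 for DDIT4, -0.592 to 0.255 for ASNS, -0.741 to 0.464 for PSAT1, -0.39 to 0.167 for SHMT2, -0.665 to 0.3 for MTHFD2, -0.396 to 0.343 for PCK2, -0.656 to 0.364 for SLC7A5, -0.305 to 0.23 for SLC6A9 and -0.248 to 0.22 for XPOT. The edgeR values without replicate 17 were -0.297 for DDIT3, -0.475 for DDIT4, -0.589 for ASNS, -0.737 for PSAT1, -0.385 for SHMT2, -0.662 for MTHFD2, -0.391 for PCK2, -0.652 for SLC7A5 and -0.244 for XPOT. Against unstimulated the ranges were -0.265 to 0.293 for SHMT2 and -0.495 to 0.314 for GDF15, with edgeR at -0.266 and -0.496. The lowest value of each range is the one without replicate 17.

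ATF5 with GSK-J4 was called in 15 of 16 settings, the reported one included, edgeR with all libraries being the exception (adjusted p = 0.0551). STC2 with belinostat was called in 9 of 15. It was lost with edgeR and on leaving out vehicle replicate 13 or 16 or belinostat replicate 18, 19 or 20. No paired analysis was possible because the groups share no replicate numbers. Of the members, CTH had the lowest counts, and the cause of the level of replicate 17 was not tested.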
